A study of Mus musculus with 4 samples.

Results

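The genes Vdr, Cyp24a1, Cyp27b1, Kl, Trpv5, Calb1, S100g, Pth1r, Casr and Fgfr1, a set of 10 for vitamin D, klotho and calcium handling, were taken by gene name from the deposited kidney expression table. All 10 were found among its 54078 features, and all 10 passed the filter on low values (mean over the pools 0.5 FPKM or more) that left 15414 genes for testing. FPKM is divided by gene length and by a total for each library, so levels of different genes can be compared roughly. For the members this length covers all annotated exons of a gene, from 480 bases for S100g to 9875 bases for Fgfr1. The effect of this choice of length on their order was not tested. The 4 libraries were made from kidneys of adult male mice at day 3 after both kidneys had been clamped for 30 min. The compared groups were WT (Apela flox/flox mice without Cre, 2 pools) and KO (Apela Ksp KO mice, in which Cre under the Ksp-cadherin promoter deletes floxed Apela in tubular epithelial cells, 2 pools). Both groups carry the floxed Apela alleles and both were injured. Each library is a pool of RNA from 3 mice according to the series description, so n = 2 counts pools, and no uninjured kidney and no drug are named for these libraries. The labels give the strain as C57BL/6 x 129S4/SvJae, while the study's methods name C57BL/6.

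The kidney keeps blood calcium and phosphate steady through a small set of hormones. Its proximal tubule makes the active vitamin D hormone, calcitriol, with Cyp27b1 and degrades it with Cyp24a1, and calcitriol acts through the nuclear receptor Vdr, the target of the drug paricalcitol that the study gave to other mice. Parathyroid hormone, read by Pth1r, raises Cyp27b1, whereas the bone hormone FGF23, read by Fgfr1 together with its co-receptor klotho, encoded by Kl, lowers Cyp27b1 and raises Cyp24a1. In the distal tubule, calcium enters cells through Trpv5 and is carried across them by the calcium-binding proteins encoded by Calb1 and S100g. Casr, the calcium-sensing receptor, lowers calcium uptake in the thick ascending limb when blood calcium is high.

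Reads on genes lay between 16045724 and 16927742 per library. The totals by which the deposited FPKM were divided differed from them, at 1.07 times the reads on genes in WT pool 2 and 0.968 to 0.988 times in the other pools. The targeted gene, Apela, had an FPKM of 5.27 and 4.57 in WT, and 0.536 and 0.245 in KO, lower in both pools labelled KO. Kidney markers were abundant, with Umod at 788 to 1133 FPKM and Slc5a2 at 56.9 to 113.7 FPKM, and the tissue was taken as kidney, as the labels give it, although the series text also names adipose tissue. The 8 listed adipose markers summed to 11.7 and 13.4 FPKM in WT and 22.9 and 14.9 FPKM in KO. Ucp1 was at 0 reads in every pool, Adipoq had 6 reads in KO pool 2 and 0 elsewhere, and Lep, Retn and Cidea had at most 2 reads. Fabp4, which endothelial cells also express, had 10.2 to 14.6 FPKM, while Cidec, a lipid droplet gene, had 1.37 and 0.282 FPKM in WT and 7.92 and 2.79 FPKM in KO, and Plin1 had 4 and 1 reads in WT and 27 and 9 reads in KO. Both were higher in the KO pools, and whether adipose tissue had a part in the results was not tested. The p-values measure the spread between pools and not between single mice. The smallest two-sided p that exact permutation of 2 against 2 pools can reach is 0.33, so each member is given with its value in every pool, pool 1 before pool 2 in each group.

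The members covered a wide range of levels in the injured kidney. S100g had the highest mean over the 4 pools, 366 FPKM, and Pth1r followed with 215 FPKM. Cyp24a1 (53.6 FPKM), Vdr (46.4 FPKM), Kl (41.3 FPKM) and Calb1 (29.5 FPKM) formed a middle group, and Trpv5 (13.9 FPKM), Cyp27b1 (10.7 FPKM), Fgfr1 (8.38 FPKM) and Casr (6.79 FPKM) were the lowest. Of the 9 neighbouring pairs in this order, the ranges over the pools were separate only for Pth1r above Cyp24a1 and for Calb1 above Trpv5. Cyp24a1 was above Vdr in the second pool of each group and below it in the first. The order of Vdr and Kl turned with the group, and so did that of Cyp24a1 and Kl. Kl was above both genes in both WT pools and below both in both KO pools. Their order over all pools therefore does not hold in both groups. Even the lowest count of a member, 334 reads of Cyp27b1 in WT pool 1, was far above the 3 reads taken as the limit of detection.

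**Figure D1:**
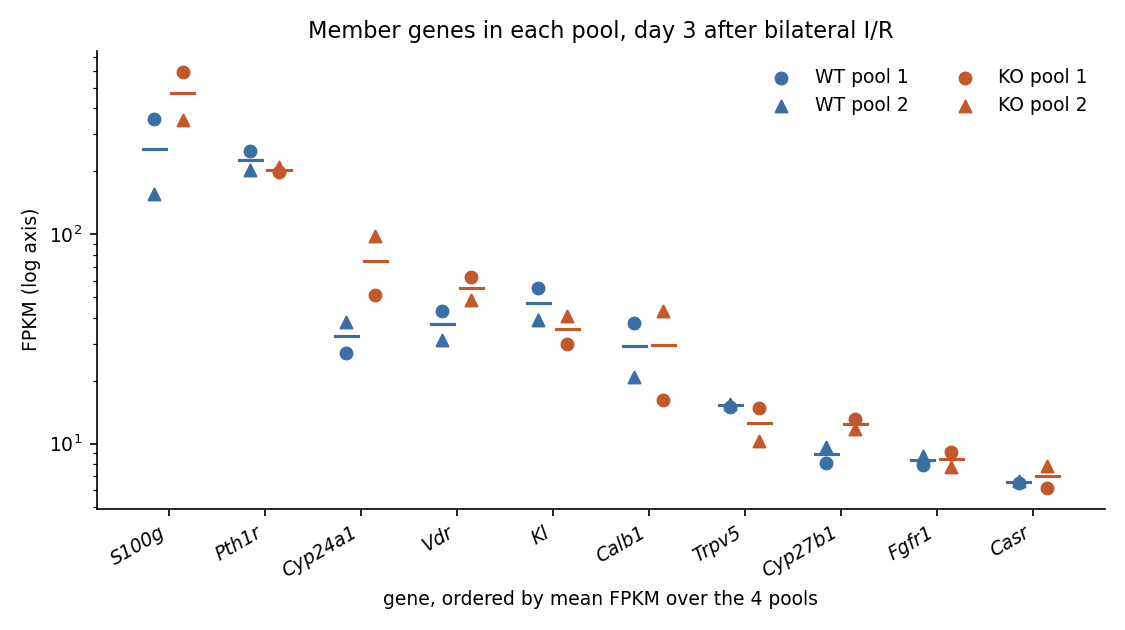
FPKM (log axis) of the 10 member genes, ordered by their mean over the 4 pools, with 1 point per pool (blue WT, orange KO; circles pool 1, triangles pool 2) and a bar at each group mean. For Cyp24a1, Vdr and Cyp27b1 the KO points lay above the WT points, for Trpv5 below, and the other 6 genes overlapped.

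The comparison of KO with WT asked which genes of the injured kidney differ when tubular Apela is lacking. With limma and Benjamini-Hochberg adjustment over all genes, no member had an adjusted p-value under 0.05, as was the case for all genes tested (0 of 15414, 0%). The targeted gene Apela was not called either (log2 fold change -2.62; limma adjusted p = 0.466). A gene that is not called here is therefore not shown to be unchanged. At an unadjusted p under 0.05, limma named 3 of the 10 members, Cyp24a1, Cyp27b1 and Vdr, against 974 genes in all (6.32%), and voom weights on recovered reads gave 0 genes past the adjusted threshold and named 970 genes, with the same 3 members, at the unadjusted one. All 3 were higher in KO, a direction with 507 such genes (3.29%). The groups did not overlap for 4 of the 10 members, against 37.8% of all genes. Of these, 3 were higher in KO (19.7% of all genes) and 1, Trpv5, was lower (18.1% of all genes). The median log2 fold change of the 10 members was 0.046, beside 0.0071 over all genes tested. With FPKM rescaled to the reads on genes, a choice made after seeing the data, the median of all genes was -0.057, and 12.9% of all genes had the KO pools above and 24.1% below the WT pools. Vdr, Cyp24a1 and Cyp27b1 were still above, Kl and Pth1r joined Trpv5 below, and Cyp24a1 alone of the members kept an unadjusted p under 0.05 in limma.

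With all pools, Cyp24a1, which encodes the mitochondrial enzyme that breaks down calcitriol, had the largest log2 fold change of the members. Cyp24a1 had 27.0 and 38.0 FPKM in WT and 51.4 and 98.1 FPKM in KO. The groups did not overlap, and KO pool 2 alone was 1.91 times as high as KO pool 1. The group means were 32.5 ± 7.78 for WT and 74.8 ± 33.0 for KO (SD, n = 2 pools each), 2.30 times as high. The log2 fold change of FPKM + 0.5 was 1.14 (standard error 0.36, 95% interval 0.19 to 2.09; limma adjusted p = 0.785). Without KO pool 2 it was 0.67, below the 1.34 of S100g in that case. Without WT pool 1 it was 0.89, below the 1.55 of S100g. The gene (ENSMUSG00000038567) lies on chromosome 2 from 170482708 to 170497145, minus strand, with 12 exons in its 1 annotated transcript. Of its 3560 exon bases, 83 overlap exons of Pfdn4 on the other strand, which had a mean of 3.91 FPKM.

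Cyp27b1, the enzyme that makes calcitriol, was higher as well, although by less. It had 8.07 and 9.69 FPKM in WT and 13.1 and 11.7 FPKM in KO. The groups were separate and the pools of each group lay close together. Mean levels were 8.88 ± 1.14 for WT and 12.4 ± 1.01 for KO (SD, n = 2 pools each), and the log2 fold change was 0.47 (standard error 0.14, 95% interval 0.094 to 0.84; limma adjusted p = 0.785). Leaving out single pools gave values from 0.34 to 0.59. The gene (ENSMUSG00000006724) lies on chromosome 10 from 127048250 to 127053006, plus strand, and its coding transcript has 9 exons.

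The balance of the enzymes that degrade and make the hormone was compared within each pool. The ratio of Cyp24a1 to Cyp27b1 FPKM was 3.34 and 3.92 in WT, and 3.91 and 8.37 in KO. KO pool 1 and WT pool 2 had nearly equal ratios, and KO pool 2 stood apart. With 0.5 added to each FPKM the mean log2 ratio was 0.67 higher in KO, 0.13 without KO pool 2 and 1.21 without KO pool 1.

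Vdr, the receptor for calcitriol, followed the same order of groups. Vdr had 42.9 and 31.3 FPKM in WT and 62.8 and 48.4 FPKM in KO. The groups were separate, with WT pool 1 and KO pool 2 closest to each other. The group means were 37.1 ± 8.22 for WT and 55.6 ± 10.1 for KO (SD, n = 2 pools each), and the log2 fold change was 0.58 (standard error 0.22, 95% interval 0.0017 to 1.16; limma adjusted p = 0.785). It was 0.36 without WT pool 2. The gene (ENSMUSG00000022479) lies on chromosome 15 from 97854425 to 97910630, minus strand, with 10 exons in its longest coding transcript.

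Which of these genes passed an unadjusted p under 0.05 in limma depended on single pools. Without WT pool 1 they were Vdr and S100g (11.2% of all genes passed), without WT pool 2 Cyp24a1 and Cyp27b1 (4.46%), without KO pool 1 Cyp24a1 and Trpv5 (4.72%), and without KO pool 2 Vdr alone (5.05%). Vdr was also lost without a filter on low values and with quantile normalization, and Vdr and Cyp27b1 when rescaled to the reads on genes, and none of the 10 members changed its side of the adjusted threshold.

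**Figure D2:**
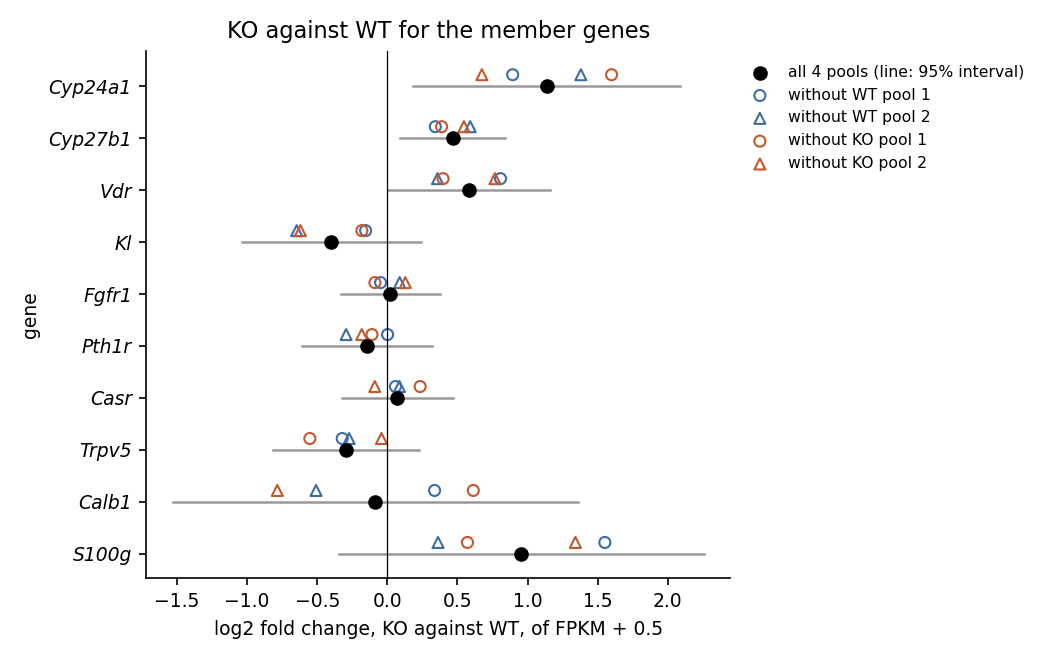
Log2 fold change of FPKM + 0.5, KO against WT, for each member gene (filled circle, with its 95% interval from limma as a line) and after dropping 1 pool at a time (open symbols, blue for a WT pool and orange for a KO pool). Cyp24a1, Cyp27b1, Vdr and S100g stayed above 0 and Kl and Trpv5 below 0 in all cases, while Calb1, Pth1r, Casr and Fgfr1 crossed 0.

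For 7 members the promoter was found in a table of RefSeq sequences of GRCm38.p6, namely Vdr, Cyp27b1, S100g, Kl, Trpv5, Casr and Pth1r, the last with 3 start sites. The vitamin D receptor binds DNA as a dimer with a retinoid X receptor, most often at a pair of hexamers 3 bases apart. The 250 bases before each start were searched on both strands for hexamers to which the receptor is known to bind. These were the hexamer AGGTCA, the hexamer AGTTCA, the hexamer GGGTCA and the hexamer GGTTCA. At least 1 was found in 3 of the 9 member promoters and in 38.6% of all 32851 promoters of this length. A pair 3 bases apart was found in no member promoter, with 50 bases after the start included, and in 0.0396% of all promoters. The stretches of Vdr and Cyp27b1 are shown because these are the separated, higher members with an entry, and that of S100g because it holds the most hexamers, 3. Capitals mark a hexamer on either strand, and each stretch is written 5′ to 3′ on the strand of its gene. The Vdr stretch lies inside the gene as the deposited table bounds it, since the RefSeq start is downstream of that bound.
Vdr, chr15:97908297-97908546, minus strand: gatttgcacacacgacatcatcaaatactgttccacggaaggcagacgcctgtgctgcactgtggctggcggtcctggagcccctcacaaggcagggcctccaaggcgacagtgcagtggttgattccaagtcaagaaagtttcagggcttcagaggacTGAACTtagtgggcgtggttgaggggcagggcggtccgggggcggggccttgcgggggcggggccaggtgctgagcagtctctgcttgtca
Cyp27b1, chr10:127047996-127048245, plus strand: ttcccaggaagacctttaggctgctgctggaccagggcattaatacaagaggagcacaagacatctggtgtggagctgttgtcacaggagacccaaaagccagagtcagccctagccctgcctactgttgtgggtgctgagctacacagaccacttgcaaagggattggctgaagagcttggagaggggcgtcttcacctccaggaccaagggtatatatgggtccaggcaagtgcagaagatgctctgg
S100g, chrX:162964600-162964849, minus strand: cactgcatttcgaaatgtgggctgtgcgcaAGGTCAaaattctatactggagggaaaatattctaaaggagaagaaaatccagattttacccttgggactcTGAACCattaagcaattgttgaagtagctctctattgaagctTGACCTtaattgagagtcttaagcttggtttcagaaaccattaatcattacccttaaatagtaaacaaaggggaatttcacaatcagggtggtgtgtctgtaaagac
Vdr held 1 hexamer, Cyp27b1 held 0 and S100g held 3, of which 1 is on the strand of the gene. A match in these letters is a description of the window and no measurement of binding.

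Other genes of vitamin D supply and signalling lay in both directions. Of the 17 tested genes of the list outside the members, 6 were higher and 11 lower in KO, with 0 higher and 2 lower at an unadjusted p under 0.05. Rxra, the partner of Vdr on DNA, had an FPKM of 31.4 and 30.3 in WT and 34.0 and 29.4 in KO, so the groups overlapped. Lrp2, encoding megalin, which takes up vitamin D bound to its carrier from the filtrate, had 99.9 and 91.0 FPKM in WT and 70.4 and 76.3 FPKM in KO, without overlap of the groups (log2 fold change -0.38; limma adjusted p = 0.785). The other gene at that level was Dhcr7, which uses up the precursor of vitamin D for cholesterol synthesis (log2 fold change -0.43; limma adjusted p = 0.785). Cubn, the partner of megalin, had 31.2 and 26.1 FPKM in WT and 26.8 and 26.3 FPKM in KO. Cyp2r1, an enzyme of the first activating step that works mainly in the liver, was low, with 0.735 and 1.13 FPKM in WT and 1.22 and 1.69 FPKM in KO. Gc, the carrier of vitamin D in blood, had the lowest log2 fold change of the list (-0.77), which rested on KO pool 2 with 14.8 FPKM beside 41.4 to 58.9 FPKM in the other pools.

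Genes described as regulated by vitamin D were split. Of the 9 tested genes outside the members, 4 were higher and 5 lower in KO, with 1 in each direction at an unadjusted p under 0.05 in limma. These were Cdkn1a, a cell cycle inhibitor that also responds to p53, with 25.8 and 24.9 FPKM in WT and 59.0 and 45.7 FPKM in KO (log2 fold change 1.02; limma adjusted p = 0.545), and Slc34a3, a phosphate cotransporter. Cdkn1a is also 1 of the injured tubule markers. Ren1, named after its values were seen, encodes renin, which vitamin D is known to repress, and had 49.9 and 29.4 FPKM in WT and 72.7 and 53.2 FPKM in KO, without overlap of the groups (log2 fold change 0.69; limma adjusted p = 0.797).

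Kl, encoding klotho, had its highest level in a WT pool and its lowest in a KO pool, but the groups overlapped. Kl had 55.2 and 39.1 FPKM in WT and 30.1 and 40.9 FPKM in KO. Mean levels were 47.1 ± 11.4 for WT and 35.5 ± 7.67 for KO (SD, n = 2 pools each), and the log2 fold change was -0.40 (standard error 0.24, 95% interval -1.04 to 0.24; limma adjusted p = 0.803). It was -0.15 without WT pool 1, -0.65 without WT pool 2, -0.18 without KO pool 1 and -0.62 without KO pool 2. Kl lies on chromosome 5 from 150952607 to 150993817, plus strand (ENSMUSG00000058488). The ratio of Vdr to Kl was 0.778 and 0.800 in WT, and 2.09 and 1.18 in KO, a pair chosen after the values were seen. Fgfr1, which binds FGF23 together with klotho and is also used by other FGF hormones and growth factors, had 7.89 and 8.72 FPKM in WT and 9.12 and 7.78 FPKM in KO. The KO pools enclosed the WT pools. Mean levels were 8.31 ± 0.586 for WT and 8.45 ± 0.948 for KO (SD, n = 2 pools each), and the log2 fold change was 0.020 (95% interval -0.33 to 0.37; limma adjusted p = 0.985). It lies on chromosome 8 from 25513654 to 25575718, plus strand (ENSMUSG00000031565), and the gene-level values do not separate its splice forms.

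The hormones FGF23 and parathyroid hormone are made outside the kidney, and their genes were at the limit of detection. Fgf23 had 1 read in WT pool 2 and 0 in the other pools, Pth had 0 reads in every pool, and Pthlh had 1 read in each KO pool. Klb, the sister of klotho, had 4 reads in WT pool 2 and 0 elsewhere. Of the other FGF receptors, Fgfr4 had 16.6 and 15.8 FPKM in WT and 15.1 and 12.7 FPKM in KO, Fgfr3 had 7.19 to 11.7 FPKM and Fgfr2 had 1.83 to 2.31 FPKM over the pools.

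The phosphate cotransporters of the proximal tubule, which FGF23 and parathyroid hormone remove from the brush border, were at lower levels in both KO pools. Slc34a1 had 898 and 689 FPKM in WT and 365 and 609 FPKM in KO (log2 fold change -0.74; limma adjusted p = 0.797). Against the mean log2 level of the WT pools, KO pool 1 was at -1.11 and KO pool 2 at -0.37. Slc34a3 had 9.58 and 10.6 FPKM in WT and 2.51 and 6.14 FPKM in KO (log2 fold change -1.24; limma adjusted p = 0.785). Against the same mean, KO pool 1 was at -1.81 and KO pool 2 at -0.67. In both genes the groups were separate and KO pool 1 was the lowest, and KO pool 1 was also the lowest pool for Kl. Slc20a2, a phosphate transporter of another family, went the other way, with 12.0 and 11.2 FPKM in WT and 16.0 and 16.7 FPKM in KO (log2 fold change 0.48; limma adjusted p = 0.708). Slc20a1 had 11.0 and 17.1 FPKM in WT and 13.9 and 11.3 FPKM in KO. Over the 28 tested genes of the list outside the members, 13 were higher and 15 lower, with 1 higher and 2 lower at an unadjusted p under 0.05, and the median log2 fold change was -0.072. These were Slc20a2, Slc34a3 and Fgf1, a growth factor that binds FGF receptors without klotho (log2 fold change -0.47), which was named after its value was seen. The highest of the list after Slc20a2 was Etv4, a transcription factor induced by FGF signals (log2 fold change 0.42; limma adjusted p = 0.872), whose pools overlapped.

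Proximal tubule and injury markers are given beside these results, since in whole kidney RNA fewer cells of a type and less RNA per cell cannot be told apart. Of the 14 tested proximal tubule markers 6 were higher and 8 lower in KO, with Slc5a2 and Gatm lower at an unadjusted p under 0.05, and their summed FPKM was 11589 and 6229 in WT and 7753 and 11731 in KO. Kap made up 70.4% to 79.4% of these sums, and without it they were 2613 and 1842 in WT and 1715 and 2415 in KO. None of the 15 listed markers was at 0 reads in all pools, and Slc22a12, with at most 2 reads, was not tested. Slc5a2, the glucose cotransporter of the early proximal tubule, had 113.7 and 95.3 FPKM in WT and 56.9 and 77.1 FPKM in KO. Among 12 injured tubule markers 8 were higher and 4 lower, 3 and 1 of them at an unadjusted p under 0.05, with Lcn2 at 133 and 95.2 FPKM in WT and 249 and 273 FPKM in KO, and Havcr1 at 210 and 393 FPKM in WT and 249 and 105 FPKM in KO. The summed FPKM of that list was 8362 and 9447 in WT and 10603 and 8206 in KO, of which Spp1 made up 82.4% to 84.5%, and 1337 and 1658 in WT and 1642 and 1334 in KO without Spp1. Relative to the mean log2 level of the 15 proximal tubule markers in the same pool, Cyp24a1 was 1.26 higher and Vdr 0.71 higher in KO, both without overlap of the groups. The value of Cyp24a1 was 0.78 without WT pool 1, and that of Vdr was 0.28 without KO pool 1 and 1.14 without KO pool 2. Cyp27b1 was 0.59 higher, with overlap, as WT pool 2 lay above KO pool 2, and 0.56 higher without overlap when the median of the markers was used. It was 0.23 without WT pool 1, 0.27 without KO pool 1, 0.95 without WT pool 2 and 0.91 without KO pool 2. Pth1r was at -0.023, with overlap, and at -0.23 without KO pool 1 and 0.19 without KO pool 2. The part of these markers in the differences was not tested beyond that.

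WT pool 2 stood apart in the markers of macrophages and of fibroblasts and mural cells. Of 10 macrophage markers 2 were higher and 8 lower in KO, with a median log2 fold change of -0.54, and 8 of the 10 were highest in WT pool 2. Their summed FPKM was 208 and 490.1 in WT and 264 and 235 in KO, of which Lyz2 made up 27.6% to 44.3%. Adgre1, the gene of the macrophage marker F4/80, had 3.09 and 11.2 FPKM in WT and 3.89 and 2.43 FPKM in KO. Of the 10 fibroblast and mural cell markers 4 were higher and 6 lower, with a median of -0.17, and 8 were highest in WT pool 2, their summed FPKM being 193 and 389 in WT and 237 and 324 in KO. None of either list was at 0 reads in all pools. Vdr and S100g had their lowest level in WT pool 2, and the log2 fold change without it was 0.36 for each. The part of these cells in the values of the members was not tested.

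**Figure D3:**
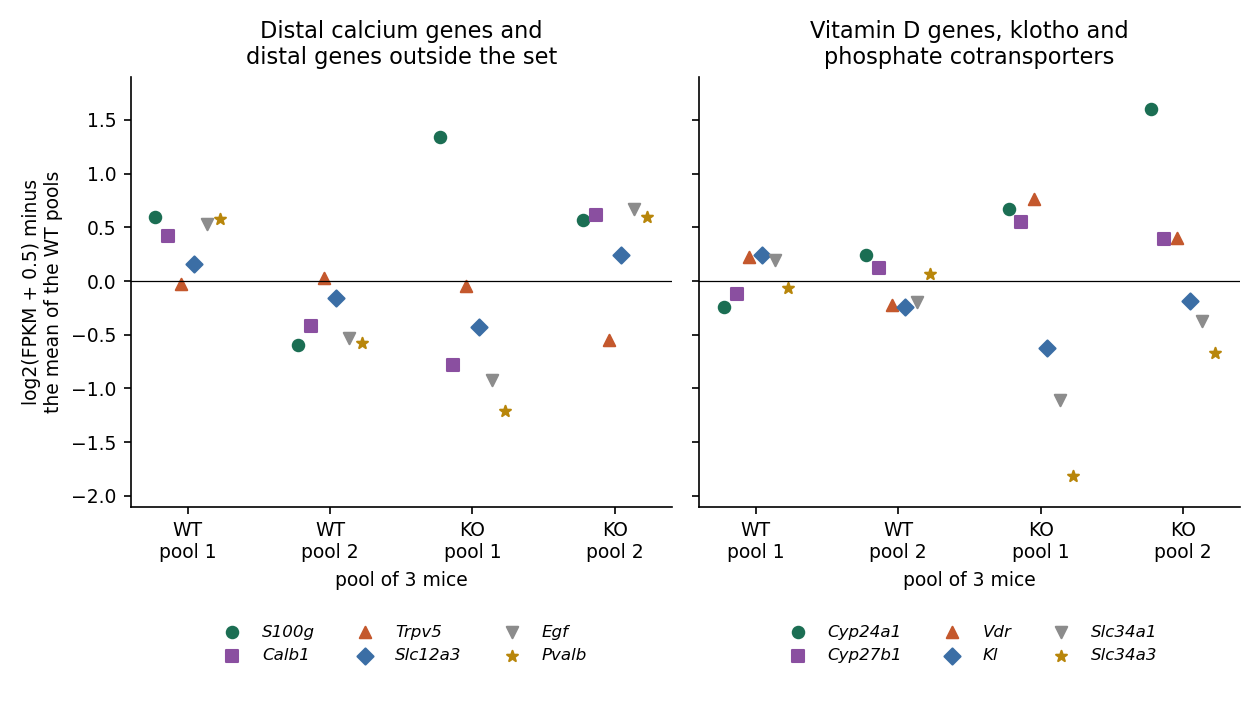
Log2(FPKM + 0.5) in each pool minus the mean of the WT pools, for the distal calcium genes S100g, Calb1 and Trpv5 with the distal genes Slc12a3, Egf and Pvalb (left), and for Cyp24a1, Cyp27b1, Vdr, Kl, Slc34a1 and Slc34a3 (right). Calb1, Egf, Pvalb and Slc12a3 were low in WT pool 2 and KO pool 1 and high in the other pools, while S100g was highest in KO pool 1.

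Of the distal calcium genes, Trpv5, the entry channel, was the member with both KO pools below both WT pools, by a small margin. Trpv5 had 15.0 and 15.5 FPKM in WT and 14.8 and 10.3 FPKM in KO. KO pool 1 lay just under the WT pools and KO pool 2 clearly below. The group means were 15.3 ± 0.379 for WT and 12.5 ± 3.23 for KO (SD, n = 2 pools each), and the log2 fold change was -0.30 (standard error 0.20, 95% interval -0.82 to 0.22; limma adjusted p = 0.816), with -0.042 without KO pool 2 and -0.55 without KO pool 1. Trpv5 lies on chromosome 6 from 41652173 to 41680769, minus strand (ENSMUSG00000036899). Of the 3219 windows of 25 bases in its longest transcript, 87 also occur in its paralog Trpv6, and 0 of 3194 windows of 50 bases do. Trpv6 had 2.29 and 2.02 FPKM in WT and 2.28 and 1.58 FPKM in KO, the lowest pool being KO pool 2 as for Trpv5.

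Calb1 and S100g encode calcium-binding proteins of the distal tubule, and both were lower in WT pool 2 than in WT pool 1. Calb1 (chromosome 4 from 15881264 to 15908064, plus strand, ENSMUSG00000028222) had 37.8 and 20.8 FPKM in WT and 16.1 and 43.2 FPKM in KO. The KO pools held both the highest and the lowest value, 2.69 times apart. Mean levels were 29.3 ± 12.0 for WT and 29.6 ± 19.2 for KO (SD, n = 2 pools each), and the log2 fold change was -0.086 with a 95% interval from -1.53 to 1.36 (limma adjusted p = 0.985). The difference was -0.78 without KO pool 2 and 0.61 without KO pool 1.

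S100g (chromosome X from 162961992 to 162964599, minus strand, ENSMUSG00000040808) had 357 and 156 FPKM in WT and 599 and 351 FPKM in KO. KO pool 1 was the highest and WT pool 2 the lowest, while WT pool 1 and KO pool 2 were nearly equal. The group means were 257 ± 142 for WT and 475 ± 175 for KO (SD, n = 2 pools each), and the log2 fold change was 0.96 (standard error 0.49, 95% interval -0.34 to 2.26; limma adjusted p = 0.798). It was 0.36 without WT pool 2, 0.57 without KO pool 1 and 1.55 without WT pool 1. The gene overlaps Ctps2 on the other strand, which had a mean of 8.98 FPKM, and shares 0 exon bases with it.

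The ratio of S100g to Calb1 was 9.45 and 7.51 in WT, and 37.3 and 8.13 in KO, so it was similar in 3 pools and KO pool 1 stood apart. The ratio of Calb1 to Egf, another gene of the distal tubule, was 1.41 and 1.65 in WT, and 1.69 and 1.46 in KO, which is much closer than either gene alone, as Egf ranged from 9.52 to 29.5 FPKM. These pairs were chosen after the values were seen. Slc12a3, the salt cotransporter of the distal convoluted tubule, had 79.7 and 64.3 FPKM in WT and 52.9 and 84.7 FPKM in KO, and Pvalb, a further calcium-binding protein of that segment, had 2.21 and 0.726 FPKM in WT and 0.287 and 2.25 FPKM in KO. Of the 9 tested distal convoluted and connecting tubule markers, 2 were higher and 7 lower in KO, 0 of them at an unadjusted p under 0.05 in limma. Their summed FPKM was 1035 and 696 in WT and 845 and 1265 in KO, of which Klk1, 1 of the higher genes, made up 80.0% to 87.3%. Without Klk1 the sums were 172 and 139 in WT and 108 and 170.1 in KO, and Calb2 was at 0 reads in all pools. Relative to the mean log2 level of the 11 listed markers, S100g was 1.10 higher in KO with KO pool 2 just above WT pool 1, while the groups overlapped for Calb1 (0.056) and Trpv5 (-0.16). That mean includes the listed markers too low to be tested, Calb2 among them, and Pvalb, which was low in every pool. The value of S100g was 0.44 without KO pool 1, 0.67 without WT pool 2 and 1.75 without KO pool 2, and those of Calb1 (-0.37 to 0.49) and Trpv5 (-0.68 to 0.37) changed sign, with KO pool 2 and KO pool 1 left out giving the ends of both ranges. With the median of the markers in place of the mean, S100g was 1.23 higher and its groups overlapped. Whether these markers had a part in the differences was not tested beyond that.

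Further genes of calcium and magnesium transport were split evenly. Of 18 tested genes outside the members, 9 were higher and 9 lower, with 1 of each at an unadjusted p under 0.05. The higher one was S100a10, which helps to bring Trpv5 to the cell surface (log2 fold change 0.38), named after its value was seen, and the lower one was Cnnm2. Slc8a1, the sodium-calcium exchanger on the basolateral side, had 9.01 and 7.71 FPKM in WT and 4.91 and 9.38 FPKM in KO, and Atp2b1, the calcium pump beside it, had 6.08 and 6.42 FPKM in WT and 5.75 and 5.92 FPKM in KO. Trpm6, the magnesium channel, had 1.83 to 2.39 FPKM over the pools. Cnnm2, which takes part in magnesium transport, had 14.2 and 14.5 FPKM in WT and 10.6 and 11.2 FPKM in KO (log2 fold change -0.38; limma adjusted p = 0.764). Wnk4, a kinase that controls distal salt and calcium transport, had 41.8 and 32.2 FPKM in WT and 48.9 and 48.5 FPKM in KO (log2 fold change 0.40; limma adjusted p = 0.786).

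Pth1r, the receptor for parathyroid hormone, was abundant in every pool. Pth1r had 250.1 and 203.6 FPKM in WT and 198.8 and 209.1 FPKM in KO, and the groups overlapped. Mean levels were 227 ± 32.8 for WT and 204 ± 7.31 for KO (SD, n = 2 pools each), and the log2 fold change was -0.15 (95% interval -0.61 to 0.32; limma adjusted p = 0.890). Quantile normalization moved it to -0.30, as did leaving out WT pool 2 (-0.29), and it was 0.0019 without WT pool 1. The gene (ENSMUSG00000032492) lies on chromosome 9 from 110722085 to 110747145, minus strand, and 95 of its 2925 exon bases overlap exons of Myl3, which had a mean of 0.221 FPKM. Casr (ENSMUSG00000051980) lies on chromosome 16 from 36493696 to 36562141, minus strand, and had 6.51 and 6.65 FPKM in WT and 6.16 and 7.83 FPKM in KO. Its WT pools lay between its KO pools. Mean levels were 6.58 ± 0.0977 for WT and 6.99 ± 1.18 for KO (SD, n = 2 pools each), and the log2 fold change was 0.072 (95% interval -0.32 to 0.47; limma adjusted p = 0.942). For both receptors the interval excluded a doubling of the level.

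Genes that pass on the signals of these receptors had small differences. Of the 16 tested genes of the list outside Pth1r and Casr, 13 were higher and 3 lower, with a median log2 fold change of 0.078 beside 0.0071 over all genes, and in 7 of them the KO pools lay above the WT pools (19.7% of all genes did so). Rescaled to the reads on genes, the median of the list with its members was 0.0050 in place of 0.074. That of all genes was then -0.057 in place of 0.0071. At an unadjusted p under 0.05 limma named 0 of the 16 genes. Endothelial markers lay in the same direction, with 10 of 10 higher in KO, 6 without overlap of the groups, and a median log2 fold change of 0.26. Their summed FPKM was 177 and 202 in WT and 250.3 and 261 in KO, of which Plvap made up 54.4% to 64.3%. Plvap, a protein of endothelial pores, had 103 and 110.1 FPKM in WT and 161 and 152 FPKM in KO. Their part in the values of the list was not tested. Pde4d, which degrades the second messenger cyclic AMP, had the highest value (log2 fold change 0.39; limma adjusted p = 0.797), followed by Ramp3, a partner of several hormone receptors (0.29; limma adjusted p = 0.797), and Arrb2, an arrestin, had the lowest (-0.25; limma adjusted p = 0.870).

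Of the claudins that form or block the paracellular path for calcium, Cldn14, which Casr induces and which blocks this path in the thick ascending limb, had the highest log2 fold change. It was a low gene, with 1.08 and 0.887 FPKM in WT and 1.58 and 1.63 FPKM in KO (log2 fold change 0.51; limma adjusted p = 0.785). The pore-forming claudins Cldn16 and Cldn19 had 6.78 to 7.48 FPKM and 10.6 to 14.9 FPKM over the pools, with log2 fold changes of -0.034 and 0.26. Cldn14 was 1 of 7 tested claudins past an unadjusted p of 0.05, 5 being higher and 2 lower, with Cldn3 (log2 fold change 0.29) next to it and Cldn12 (-0.059) the lowest. Among the 8 tested thick ascending limb markers 5 were higher and 3 lower, 1 of them higher at an unadjusted p under 0.05, with Slc12a1, the salt cotransporter of that segment, at 138 and 65.6 FPKM in WT and 149 and 117 FPKM in KO. Relative to the mean log2 level of the 9 listed markers, Casr was at -0.032 in KO against WT with overlap, and at -0.46 without overlap when their median was used. With single pools left out the first value ranged from -0.30 (without WT pool 1) to 0.23 (without WT pool 2) and the second from -0.79 to -0.13 in the same 2 cases.

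**Figure D4:**
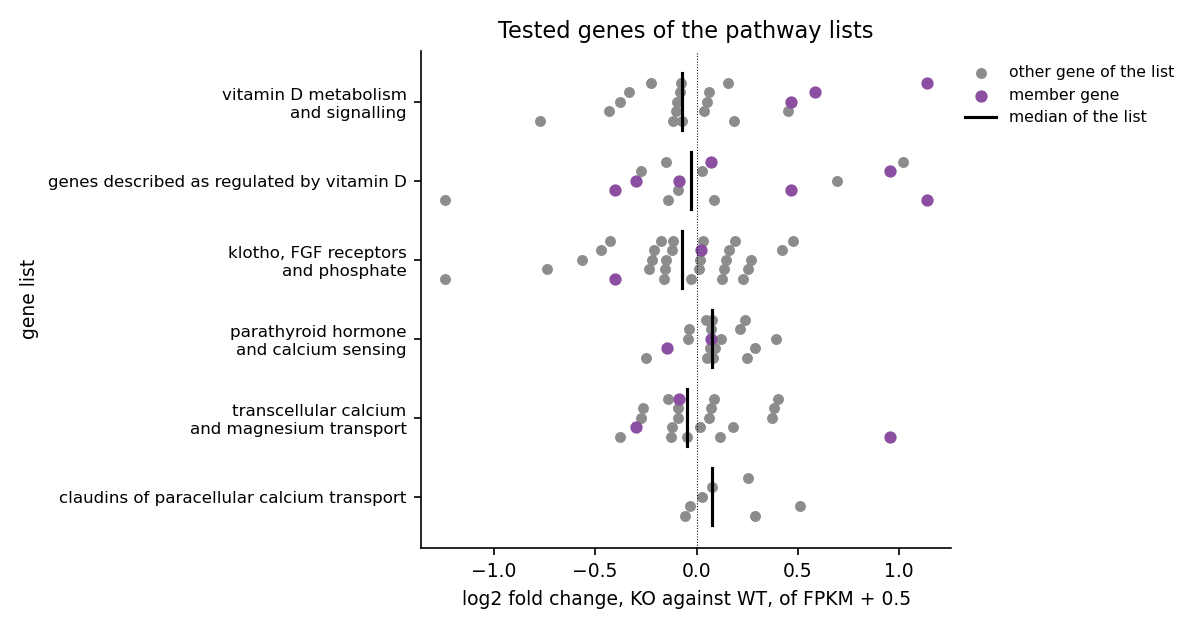
Log2 fold change of FPKM + 0.5, KO against WT, for every tested gene of the 6 lists around the members (purple, members; grey, other genes; black bar, median of the list, members included). The medians lay between -0.074 and 0.074 with all pools and between -0.092 and 0.25 with single pools left out. After rescaling to the reads on genes they lay between -0.14 and 0.0050, where the median of all genes was -0.057 in place of 0.0071. Cyp24a1, S100g, Cdkn1a and Slc34a3 were the genes farthest from 0.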

How the data were processed

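Kidney RNA was purified on poly-T beads and sequenced by a company. The deposited file gives FPKM for each gene in each library, computed for the authors, beside positions and gene lengths in bases (the other column used). The submitters' processing notes name HISAT2 2.0.5 and the builds mm10 and GRCm38.p6. The counting tool is not given in the sources used here, and the library protocol names no step that marks strand. Of 53620 genes shared with GENCODE M21, 97.1% had identical coordinates. FPKM times gene length, divided by 1 step per library found from its low genes, returned whole reads (100% of nonzero entries, tolerance 0.01 read), which served for depth and voom weights. The step gives the total by which the authors' FPKM were scaled (16071739, 17203609, 16727839 and 16237848 in WT pools 1 and 2 and KO pools 1 and 2). The chi-square per gene between replicate pools was 31.5 in WT and 24.5 in KO, so no library was a duplicate.

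A limma 3.58.1 model (R 4.3.3, eBayes with trend, two-sided, no covariates) was fitted to log2(FPKM + 0.5) of all 15414 genes whose mean reached 0.5 FPKM. The p-values were adjusted over them by Benjamini-Hochberg, with the study's threshold of 0.05. The study itself reported genes past that threshold between injured KO and WT kidneys, and it states no model. The number of genes past it here holds for the limma fit alone. Intervals are 95% intervals of that fit. The added 0.5 makes fold changes of low genes smaller than those of FPKM itself. Python 3.11.15 was used otherwise. The fit was tested on simulated data. The members and lists were chosen with earlier results of these data known. Named genes were the members, their direct partners, nephron and injury markers, and the 2 highest and 2 lowest genes by log2 fold change in each of 6 pathway lists (mean of at least 1 FPKM), and genes outside this rule are marked in the text or, for the adipose genes other than Adipoq and Ucp1, Gatm, Slc22a12, Calb2, Kap, Spp1, Klk1, Plvap, Adgre1 and Lyz2, were named after their values were seen. Alternatives were other pseudocounts (0.1, 1), other filters (none, 1 FPKM), quantile normalization, voom weights, a replicate block, protein-coding genes alone, an unadjusted p, medians of markers, each pool left out and, added after seeing the data, a rescaling to the reads on genes and marker sums without the most abundant gene.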

Additional observations from a re-analysis of the deposited data

How the results depend on the processing

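With only 2 pools per group, the precision is set by the spread between pools rather than by depth. The number of genes past the adjusted threshold in limma was 0 under every alternative except an unadjusted p under 0.05, which gave 974. Of 130 log2 fold changes of the members under alternatives, 123 kept their direction and 7 changed it. The changes were 6 with 1 pool left out and Fgfr1 (-0.049) when rescaled to the reads on genes. Other filters, the replicate block and protein-coding genes alone cannot alter a log2 fold change. Their values repeat the main ones and count among the 123. With each pool left out in turn, with the lone pool assumed to vary like the other group, Calb1 ranged from -0.78 to 0.61, Pth1r from -0.29 to 0.0019, Casr from -0.089 (without KO pool 2) to 0.23 (without KO pool 1) and Fgfr1 from -0.088 (without KO pool 1) to 0.13 (without KO pool 2). The number of members without overlap of the groups ranged from 5 (without WT pool 1) to 10 (without KO pool 2) in these cases. With all pools as deposited it was 4, beside 37.8% of all genes. Rescaled to the reads on genes it was 6, where 12.9% of all genes had the KO pools above and 24.1% below the WT pools. It was also 6 with quantile normalization, for which the share of all genes is not given here. A single pool overlaps less by construction, with 66.3% to 73.7% of all genes not overlapping. The replicate numbers were not used to pair the pools in the main fit. The deviations of same-numbered pools had a correlation of -0.0017 across genes. With 2 pairs this value cannot show whether pools were handled together. With the replicate block, 0 genes passed the adjusted and 932 the unadjusted threshold, and 4 members passed the latter, S100g being added. The change of the Cyp24a1 to Cyp27b1 ratio was 0.66 and 0.68 with pseudocounts of 0.1 and 1, and 0.13 to 1.21 with single pools left out. With single pools left out, the median log2 fold change ranged from -0.058 to -0.0089 for the vitamin D list, from -0.088 to 0.11 for vitamin D regulated genes (above 0 in 3 of the 4 cases), from -0.092 to 0.013 for klotho, FGF receptors and phosphate, from 0.056 to 0.14 for parathyroid hormone and calcium sensing, from -0.089 to 0.16 for transcellular transport, and from 0.00024 (without WT pool 2) to 0.25 (without WT pool 1) for claudins. In the same order, the medians were -0.074, -0.029, -0.072, 0.074, -0.047 and 0.074 as deposited, beside 0.0071 over all genes. Rescaled to the reads on genes they were -0.14, -0.10, -0.14, 0.0050, -0.12 and 0.0030, beside -0.057 over all genes. Under quantile normalization they were -0.063, -0.10, -0.071, 0.048, -0.084 and 0.0051, beside -0.0025 over all genes. That of klotho, FGF receptors and phosphate was -0.027 with a mean of at least 1 FPKM and -0.045 without a filter. At an unadjusted p under 0.05, limma called 345 genes higher and 581 lower after that rescaling, against 507 higher of 974 as deposited. Relative to the median of the thick ascending limb markers, Casr was at -0.46 in place of -0.032.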
